A study of Mus musculus with 7 samples.

Results

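Serpins are a family of proteins that share one fold, and in mice they are grouped by sequence into clades that carry a letter. The members described here are the mouse genes whose symbol is Serpin, a clade letter from a to i and a number. They were found by matching each array probe's accession to a gene: of 55681 probes, 75 read 60 Serpin genes, out of 69 such symbols in the gene table used. By clade, 23 of the 60 genes belong to clade A, 27 to clade B and 10 to clades C to I. The study, by its title, concerned β-catenin activation in the dermal sheath, the mesenchymal layer around the hair follicle. Cells of dorsal skin from mice at postnatal day 15 were sorted for a YFP reporter, which both groups carry, and against surface CD34, integrin α8 and alkaline phosphatase. The RNA was amplified from a small input and read on 1-colour mouse arrays, 3 labelled control and 4 labelled cΔex3, in which β-catenin is activated. The control-labelled arrays hold 4 mice, since array 3 pools a pair, and the cΔex3-labelled arrays hold 6, since arrays 2 and 3 each pool a pair. The Cre driver, the YFP allele's promoter and the strain are not given in the sources used here, so that the cells in which the allele acts cannot be stated.

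An inhibitory serpin presents a reactive centre loop as bait, and the protease that cuts it is trapped in a covalent complex while the serpin refolds. Most clade A members and the single or paired genes of clades C, D, F and G are plasma proteins made mainly by the liver, where they control coagulation, fibrinolysis, complement and leukocyte proteases. Clade B members act inside cells, while those of clade E act around cells. Some serpins do not inhibit proteases: a few carry hormones, and Serpinh1 is a chaperone of procollagen.

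Values are log2 of the processed signal relative to the array's own 75th percentile, which ran from 756 to 907 on control-labelled and from 1348 to 2160 on cΔex3-labelled arrays. A difference is always the cΔex3-labelled mean minus the control-labelled mean, in log2 units, with its standard error (SE) and adjusted p from limma over all genes, and a gene was called at an adjusted p under 0.05. Of all genes tested, 29% were called lower and 24% higher, which the marker counts below stand beside. The arrays carried transcripts of other cells than the labels name. The 20 hepatocyte markers summed to 5351 to 7158 times the 75th percentile on the control-labelled arrays and to 58.6 to 253 times on the others, and all 20 were called lower, with a median difference of −9.25. Of these, Cyp8b1 and Baat were not well above background on any cΔex3-labelled array. The 15 adipocyte markers summed to 55.0 to 140 times on the control-labelled and 1076 to 2338 times on the cΔex3-labelled arrays, and all 15 were called higher, with a median of 5.78. Of 9 dermal sheath and smooth muscle markers, 8 were called higher, with summed levels of 24.5 to 35.5 against 100 to 223 times. Groups are therefore named by their labels, and no difference is given as an effect of the allele. Fewer cells of a type and less RNA per cell cannot be told apart in such samples.

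Of the 60 Serpin genes, 50 had signal well above background on 3 or more of the 7 arrays and were tested. Many plasma serpins of clades A, C, D and F were much lower on the cΔex3-labelled arrays, the collagen chaperone Serpinh1 was higher, and clade B held genes of both directions. In all, 28 Serpin genes were called lower, 11 were called higher and 11 were not called. Over all 18030 genes tested, 53.1% were called, 29% lower and 24% higher. By probe, 36 of 60 tested Serpin probes were called lower and 12 higher, against 31.4% and 18.6% of all 42458 tested probes. The groups' arrays did not overlap for 40 of the 50 Serpin genes and for 58.7% of all genes. The median difference of the tested Serpin genes was −2.11, with the lowest at −10.56, where that of all genes was −0.08, with a 5th and 95th percentile of −3.18 and 3.65. Among called genes, fitted differences of at least 64-fold numbered 15 lower and 0 higher for Serpin genes. Over all genes they numbered 381 lower and 171 higher. The 15 include Serpina12, above background on no cΔex3-labelled array, which can only be said to be at least 19.3-fold lower. In the authors' deposited log2 values, Serpina1a, Serpina1c, Serpina1e and Serpina7 also fell short of 64-fold, at −5.4, −5.5, −5.6 and −4.8. These counts describe members that passed the filter and are not used as support.

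**Figure D1:**
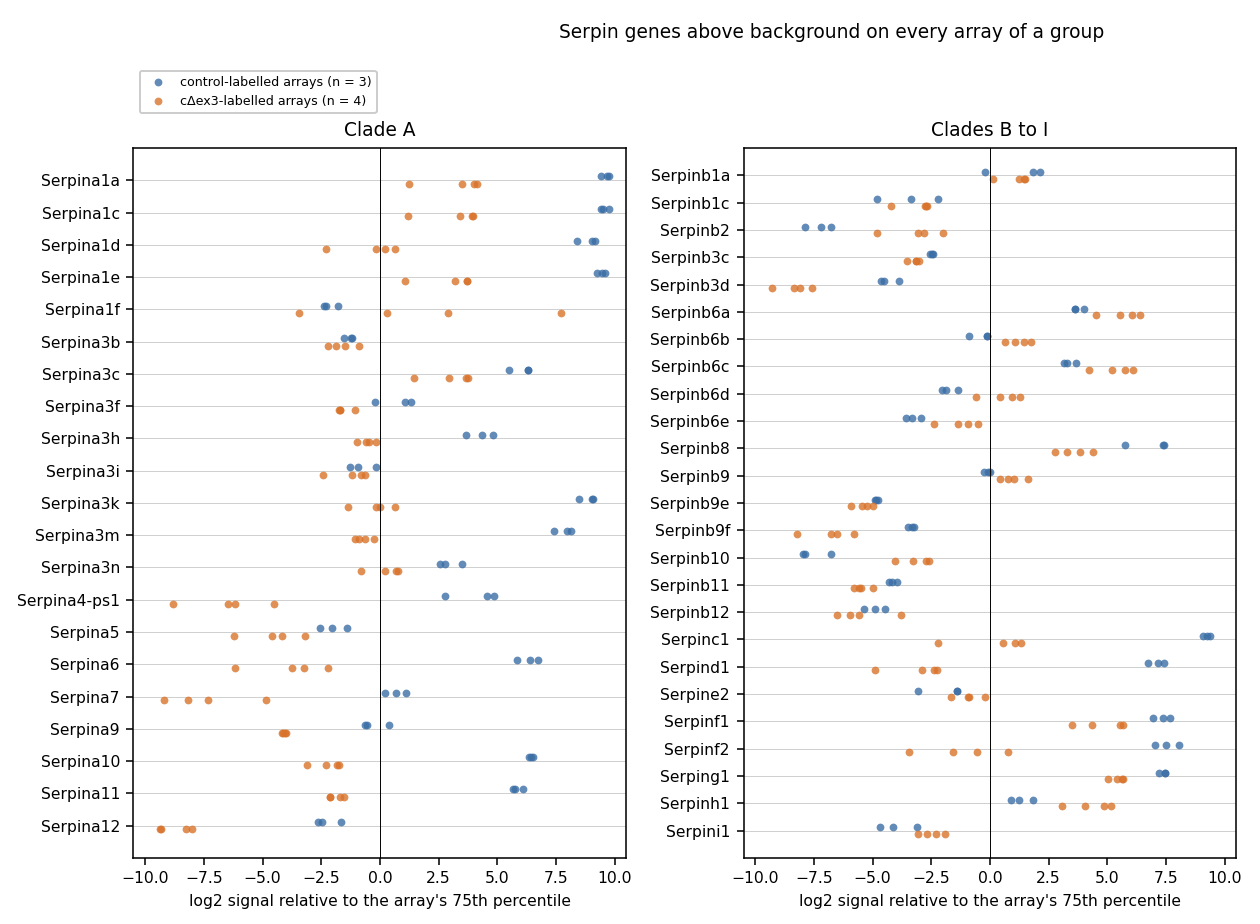
Value of the described Serpin genes on each of the 7 arrays, as log2 of the processed signal relative to the array's 75th percentile, with genes ordered by clade. Many plasma serpins of clades A, C, D and F stand high on the 3 control-labelled arrays (Serpinc1 between 9.06 and 9.36) and low on the 4 cΔex3-labelled arrays (Serpinc1 between −2.20 and 1.32), while Serpinh1 runs the other way. Serpinf1 still reads 3.52 to 5.69 on the cΔex3-labelled arrays, and Serpina5 and Serpina12 lie below 0 on every array.

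Clade A had no gene called higher, 18 called lower and 5 not called among its 23 genes. All of these were tested, and their median difference was −6.39. The shares over all genes tested were 29% lower and 24% higher. The Serpina1 genes are mouse copies of the gene of α1-antitrypsin, the main plasma inhibitor of neutrophil elastase. On the array, 4 of 5 such copies were called lower. Serpina1a read 9.76, 9.66 and 9.43 on the control-labelled arrays, with 1.24, 4.14, 3.51 and 4.02 on the others, a difference of −6.39 ± 0.69 (SE, adjusted p = 0.000389). Serpina1c read 9.51, 9.75 and 9.43 on the control-labelled arrays against 1.20, 3.96, 3.41 and 3.94 on the cΔex3-labelled arrays and differed by −6.44 ± 0.67 (SE, adjusted p = 0.000331). Serpina1e read 9.47, 9.59 and 9.26 on the control-labelled and 1.07, 3.72, 3.20 and 3.72 on the cΔex3-labelled arrays and differed by −6.51 ± 0.65 (SE, adjusted p = 0.000268). The groups were far apart for all 3 of these copies, and cΔex3-labelled array 1 stood lowest. Serpina1d read 9.02, 9.17 and 8.39 on the control-labelled arrays, with −2.31, 0.20, −0.15 and 0.62 on the others, a difference of −9.27 ± 0.69 (SE, adjusted p = 7.92e-05). Without cΔex3-labelled array 1, the difference was −5.73 for Serpina1a and −8.64 for Serpina1d. The 2 probes of Serpina1a gave −6.39 and −9.38, those of Serpina1e −6.51 and −8.64, and those of Serpina1d −9.27 and −10.01. The copies are close paralogs, the probes' sequences were not used here, and how much of each signal came from another copy was not tested.

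The promoters of these copies show how alike they are, and that of Serpinh1, the chaperone that ran the other way, is set beside them. They run from 250 bases before to 50 after the annotated start and come from RefSeq on GRCm38.p6, which held 49 of the 60 genes. Between the promoters of Serpina1a, Serpina1c, Serpina1d and Serpina1e, identity ranged from 91.7% to 97.5% in the 6 pairs, over 237 to 295 aligned bases. The 10 pairs of Serpinb6 promoters were at 66.4% to 81.6%, over 27 to 275 aligned bases. The stretches shown are Serpina1a at chr12:103863570-103863869, Serpina1d at chr12:103773584-103773883 and Serpinh1 at chr7:99353190-99353489, each on the minus strand and read 5′ to 3′. Capitals mark TGTTTGC, a motif of FOXA factors, and GTTAAT, a half-site of HNF1 factors, in the Serpina1 genes, and the GC box GGGCGG in Serpinh1, and no marked motif overlaps another.
Serpina1a: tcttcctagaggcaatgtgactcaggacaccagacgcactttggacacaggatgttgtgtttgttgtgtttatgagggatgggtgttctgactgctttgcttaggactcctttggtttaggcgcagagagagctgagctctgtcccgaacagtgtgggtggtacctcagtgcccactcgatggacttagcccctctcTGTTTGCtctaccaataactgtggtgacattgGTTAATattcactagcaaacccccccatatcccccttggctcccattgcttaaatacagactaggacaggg
Serpina1d: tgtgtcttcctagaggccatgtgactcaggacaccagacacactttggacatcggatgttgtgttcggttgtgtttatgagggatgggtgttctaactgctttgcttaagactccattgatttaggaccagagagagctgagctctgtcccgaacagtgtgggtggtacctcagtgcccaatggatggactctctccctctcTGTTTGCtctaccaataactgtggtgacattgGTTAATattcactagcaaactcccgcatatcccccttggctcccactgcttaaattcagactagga
Serpinh1: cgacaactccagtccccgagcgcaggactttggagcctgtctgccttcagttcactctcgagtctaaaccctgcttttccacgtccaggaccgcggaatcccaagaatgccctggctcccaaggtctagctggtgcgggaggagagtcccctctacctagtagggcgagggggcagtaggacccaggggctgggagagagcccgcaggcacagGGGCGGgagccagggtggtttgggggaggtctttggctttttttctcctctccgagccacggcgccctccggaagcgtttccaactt

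Both strands of each promoter were searched for these letters. The calls below stand beside those of all 50 tested Serpin genes, of which 28 were called lower and 11 higher. Of all genes tested, 29% were called lower and 24% higher, and calls over all genes with each motif were not counted. GTTAAT occurred in 10 of the 49 Serpin promoters, those of 8 genes called lower and 0 called higher, and in 7.20% of all 27025 promoters. Serpinb3b and Serpini2, also among the 10, were not tested for a difference. TGTTTGC occurred in 8 of the 49, those of 6 genes called lower and 2 called higher, and in 5.04% of all promoters. All 4 of the Serpina1a, Serpina1c, Serpina1d and Serpina1e promoters held both motifs, so that close copies make up part of these counts. GGGCGG occurred in 8 of the 49, those of 5 genes called higher and 1 called lower, and in 35.9% of all promoters. These 5 include Serpinb6a, Serpinb6b and Serpinb6c, so that copies make up part of this count too. The letters TATAAA were found in 14 of the 49 and in 14.2% of all promoters. GAANNTTC, a short form of the heat shock element, was in 4 of the 49 and in 7.95% of all promoters, and these 4 did not include Serpinh1. A match is a run of letters and was not tested as a binding site.

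The fifth copy, Serpina1f, is known in mice for expression in the epididymis. It read −2.29, −1.79 and −2.37 on the control-labelled arrays against −3.43, 0.29, 2.92 and 7.70 on the cΔex3-labelled arrays. Its cΔex3-labelled arrays spanned 11.13 on the log2 scale, with array 1 below every control-labelled array and arrays 2 to 4 above them. The difference of 4.02 ± 2.35 (SE, adjusted p = 0.188) was not called, and without cΔex3-labelled array 1 it was 5.78, past the threshold (adjusted p = 0.0417). The median of the epididymis markers ran in the same order over these arrays, though not every marker did. It was −6.33, −3.57, −2.61 and −0.03 on cΔex3-labelled arrays 1 to 4, against −4.83, −4.91 and −5.51 on the control-labelled arrays. Lcn5 read −9.19, 3.64, 6.06 and 7.92 on cΔex3-labelled arrays 1 to 4, while Spag11b was highest on array 3, at 6.39. The markers' summed levels were 6.38, 24.8, 154.9 and 498 times the 75th percentile on the former and 125 to 213 times on the latter. The control-labelled sums rest mainly on Pax2, at 7.70, 7.50 and 6.93, which was called lower by −11.26. Crisp1, Lcn5, Adam28 and Cuzd1 of that list were not well above background on any control-labelled array, and Adam28 was not on any cΔex3-labelled array either. The part of this tissue in Serpina1f was not tested.

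The Serpina3 genes are mouse relatives of α1-antichymotrypsin, the plasma inhibitor of cathepsin G and chymase. Of 10 on the array, 6 were called lower and none higher, against 29% and 24% of all genes tested. Serpina3k, also known as kallikrein-binding protein, read 9.04, 9.06 and 8.50 on the control-labelled and −1.37, 0.02, −0.17 and 0.65 on the cΔex3-labelled arrays and differed by −9.09 ± 0.46 (SE, adjusted p = 1.93e-05). Serpina3m read 8.13, 7.97 and 7.44 on the control-labelled arrays, with −0.64, −1.04, −0.90 and −0.27 on the others, and differed by −8.56 ± 0.26 (SE, adjusted p = 7.37e-06). Every cΔex3-labelled array stood more than 7 log2 units below every control-labelled array for both. Serpina3h read 4.82, 4.36 and 3.65 on the control-labelled arrays against −0.60, −0.18, −0.48 and −0.97 on the cΔex3-labelled arrays, a difference of −4.83 ± 0.32 (SE, adjusted p = 5.05e-05). Serpina3c read 6.31, 6.30 and 5.48 on the control-labelled and 2.95, 3.66, 3.73 and 1.43 on the cΔex3-labelled arrays and differed by −3.09 ± 0.58 (SE, adjusted p = 0.00422), with cΔex3-labelled array 4 the lowest. Serpina3n, an acute-phase inhibitor of granzyme B and neutrophil elastase, read 3.48, 2.58 and 2.79 on the control-labelled arrays, with 0.77, 0.23, 0.67 and −0.80 on the others, and differed by −2.73 ± 0.43 (SE, adjusted p = 0.00192). The groups did not overlap for these genes, nor for Serpina3f. Serpina3f read 1.07, −0.21 and 1.32 on the control-labelled arrays against −1.08, −1.71, −1.69 and −1.74 on the cΔex3-labelled arrays and differed by −2.28 ± 0.39 (SE, adjusted p = 0.00292).

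The remaining Serpina3 genes were not called. Serpina3b read −1.20, −1.51 and −1.23 on the control-labelled and −0.87, −2.21, −1.51 and −1.89 on the cΔex3-labelled arrays and differed by −0.31 ± 0.33 (SE, adjusted p = 0.456). Serpina3i read −0.17, −0.92 and −1.27 on the control-labelled arrays, with −1.18, −0.64, −0.81 and −2.44 on the others, and differed by −0.48 ± 0.49 (SE, adjusted p = 0.436), and its second probe gave 0.27. The groups overlapped for both genes. Serpina3a and Serpina3j lay between −8.20 and −3.77 on all arrays, and neither was well above background on every array of a group. With normexp Serpina3j differed by −0.93, past the threshold (adjusted p = 0.00613).

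**Figure D2:**
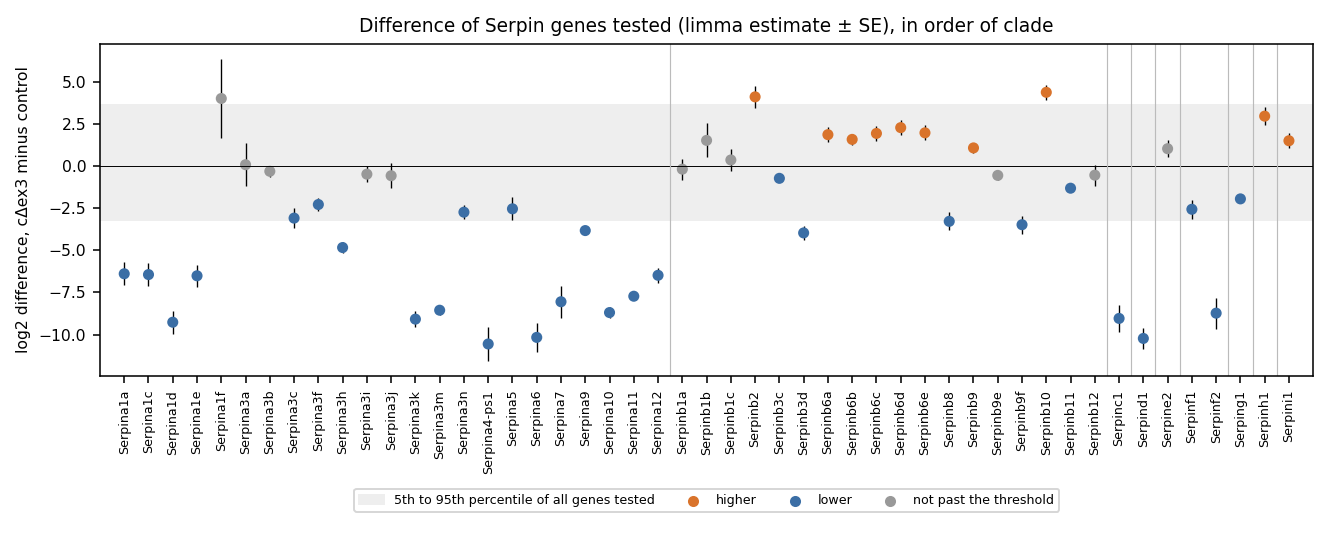
Difference of the tested Serpin genes, as the cΔex3-labelled minus the control-labelled mean in log2 units, with its standard error from limma and grouped by clade. Clade A lies between −10.56 and 4.02 with 18 of 23 genes called lower, and clade B lies nearer 0 with 8 of 18 called higher and 5 lower. Among all genes tested, 24% were called higher and 29% lower.

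Clade A also holds hormone carriers, which bind their ligand in place of inhibiting a protease. Serpina6, the corticosteroid-binding globulin, read 6.41, 6.74 and 5.84 on the control-labelled arrays against −6.16, −3.24, −3.73 and −2.21 on the cΔex3-labelled arrays and differed by −10.17 ± 0.87 (SE, adjusted p = 0.000141), with cΔex3-labelled array 1 the lowest. Serpina7, the thyroxine-binding globulin and the only tested member on chromosome X, read 0.69, 0.24 and 1.096 on the control-labelled and −9.20, −7.31, −8.17 and −4.84 on the cΔex3-labelled arrays. It was well above background on 3 of 3 control-labelled arrays and on 1 of 4 others, and differed by −8.05 ± 0.96 (SE, adjusted p = 0.000577). With normexp background correction, that difference was −5.02, and it was −4.76 in the deposited series values. Agt, the angiotensin precursor and a serpin by fold under another symbol, was called lower too, by −2.20 ± 0.43 (SE, adjusted p = 0.00459).

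Among the clade A inhibitors of coagulation, Serpina10, which with protein Z inhibits factor Xa, read 6.55, 6.43 and 6.36 on the control-labelled arrays, with −3.11, −1.85, −2.29 and −1.75 on the others, and differed by −8.70 ± 0.34 (SE, adjusted p = 9.29e-06). Serpina5, the inhibitor of activated protein C, read −1.42, −2.54 and −2.05 on the control-labelled arrays against −6.20, −4.60, −4.15 and −3.19 on the cΔex3-labelled arrays. Its difference was −2.54 ± 0.68 (SE, adjusted p = 0.018), with no overlap, and without control-labelled array 1 it was −2.24 and no longer called (adjusted p = 0.0679). In the deposited series values it was −1.67. Serpina11, whose function is little known, read 5.69, 6.11 and 5.77 on the control-labelled and −2.13, −1.68, −2.14 and −1.52 on the cΔex3-labelled arrays and differed by −7.73 ± 0.23 (SE, adjusted p = 7.37e-06). Serpina4-ps1, a pseudogene copy of the kallistatin gene, read 2.76, 4.56 and 4.87 on the control-labelled arrays, with −8.84, −4.50, −6.19 and −6.46 on the others. It passed background on 2 of the 4 cΔex3-labelled arrays and differed by −10.56 ± 1.01 (SE, adjusted p = 0.000229). With normexp its difference was −8.28 and in the deposited series values −7.65.

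Serpina9, known from germinal centre B cells, read −0.54, −0.64 and 0.40 on the control-labelled arrays against −4.18, −4.05, −4.12 and −4.01 on the cΔex3-labelled arrays and differed by −3.83 ± 0.27 (SE, adjusted p = 6.91e-05). The cΔex3-labelled arrays lay within 0.18 of each other for it. Of 6 B cell markers, 2 were called lower and 0 higher, where 29% of all genes were called lower. Their part in this difference was not tested. Serpina12, or vaspin, is known as a product of adipose tissue. It read −1.65, −2.49 and −2.63 on the control-labelled and −9.33, −8.00, −8.26 and −9.36 on the cΔex3-labelled arrays and was not well above background on any cΔex3-labelled array, so that it was at least 19.3-fold lower there (adjusted p of the fitted difference 5.34e-05). With normexp the fitted difference was −2.92 and in the deposited series values −2.52, in place of −6.48. All 15 adipocyte markers ran the other way on the same arrays.

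The coagulation and complement serpins outside clade A lie in clades C, D, F and G. All 5 genes of these clades were called lower, against 29% of all genes tested. Serpinc1 is antithrombin, the main inhibitor of thrombin and factor Xa. It read 9.26, 9.36 and 9.06 on the control-labelled arrays, with −2.20, 1.07, 0.54 and 1.32 on the others, with means of 9.22 ± 0.15 (SD, n = 3) and 0.18 ± 1.62 (SD, n = 4). Its difference was −9.04 ± 0.82 (SE, adjusted p = 0.000184), and −8.25 without cΔex3-labelled array 1, which stood well below the other 3 of its group. Serpind1, heparin cofactor II, read 7.17, 7.42 and 6.75 on the control-labelled arrays against −4.90, −2.39, −2.91 and −2.25 on the cΔex3-labelled arrays and differed by −10.23 ± 0.64 (SE, adjusted p = 4.14e-05). Serpinf2 is α2-antiplasmin, the fast inhibitor of plasmin. It read 7.51, 8.04 and 7.04 on the control-labelled and −3.43, −1.58, −0.57 and 0.77 on the cΔex3-labelled arrays and differed by −8.73 ± 0.92 (SE, adjusted p = 0.000337). No cΔex3-labelled array came within 6 log2 units of a control-labelled array for any of these 3 genes.

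Serpinf1 and Serping1 were lower by less. Serpinf1, the pigment epithelium-derived factor, does not inhibit proteases and is made by many mesenchymal cells. It read 7.39, 7.68 and 6.96 on the control-labelled arrays, with 4.36, 5.56, 5.69 and 3.52 on the others, and differed by −2.56 ± 0.55 (SE, adjusted p = 0.00741), with cΔex3-labelled arrays 2 and 3 above 1 and 4. Serping1 is the C1 inhibitor, which controls complement and plasma kallikrein. It read 7.46, 7.48 and 7.22 on the control-labelled arrays against 5.41, 5.67, 5.63 and 5.05 on the cΔex3-labelled arrays and differed by −1.95 ± 0.20 (SE, adjusted p = 0.000342). The groups did not overlap for either gene. The difference of Serping1 was −1.09 with quantile normalisation and −0.99 in the deposited series values, still past the threshold.

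The fitted difference was lower by at least 6 log2 units for 15 Serpin genes. Among these, cΔex3-labelled array 1 was the lowest of its group for 12 and array 4 the highest for 10. The hepatocyte markers had medians of −2.87, −0.05, −1.09 and −0.21 on cΔex3-labelled arrays 1 to 4 and of 8.13, 8.25 and 7.48 on the control-labelled arrays. By median, array 1 was thus the lowest for these markers too, although their summed level was highest there, at 253 times the 75th percentile. That sum rests mainly on Cyp2e1, which read 7.88 on array 1. Of 10 macrophage and Kupffer cell markers 4 were called lower and 0 higher, and of 8 hepatic stellate cell markers 6 were called lower and 0 higher. Among all genes tested, 29% were called lower and 24% higher. The part of liver cells in the Serpin differences was not tested.

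**Figure D3:**
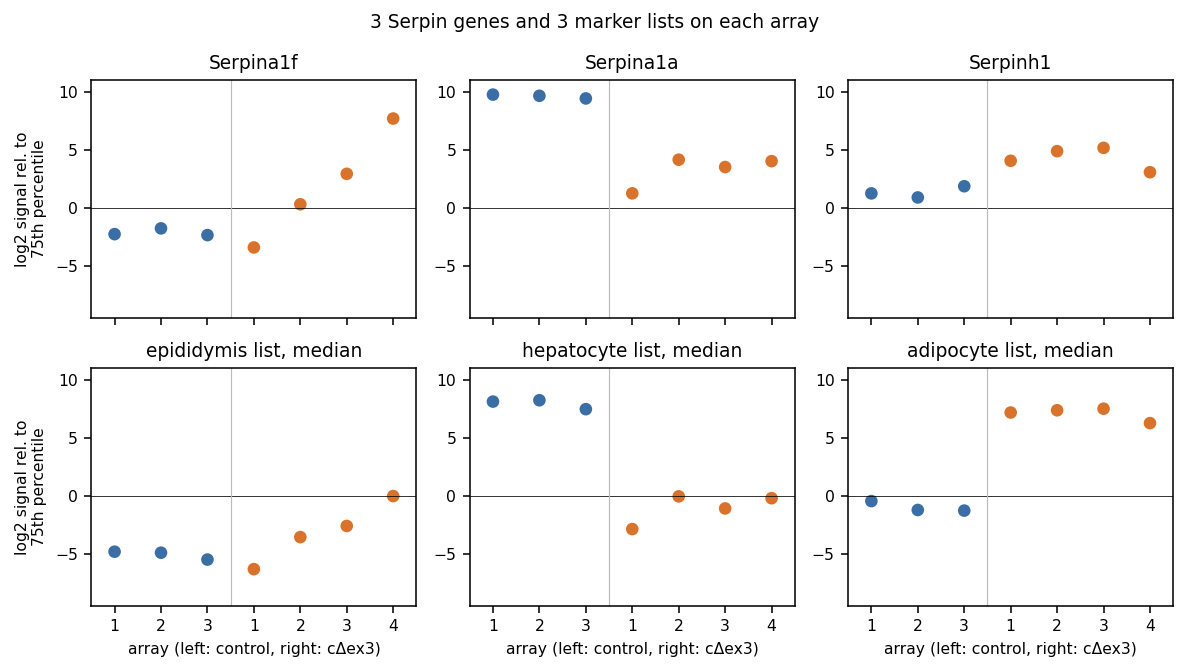
Serpin genes and the medians of marker lists on each of the 7 arrays, as log2 relative to the array's 75th percentile. The hepatocyte median lies between 7.48 and 8.25 on the control-labelled arrays and between −2.87 and −0.05 on the others, and the adipocyte median between −1.28 and −0.46 and between 6.27 and 7.52.

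Serpine2, protease nexin 1, which inhibits thrombin and urokinase outside cells, read −1.42, −1.40 and −3.05 on the control-labelled and −0.23, −0.90, −0.92 and −1.65 on the cΔex3-labelled arrays. Its arrays overlapped, and the difference of 1.03 ± 0.50 (SE, adjusted p = 0.122) was not called. With the row of the slide as a block it was 1.56 and past the threshold (adjusted p = 0.00927).

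Serpinh1, or Hsp47, is the chaperone of procollagen in the endoplasmic reticulum. It read 1.23, 0.88 and 1.85 on the control-labelled arrays, with 4.05, 4.88, 5.17 and 3.06 on the others. The groups did not overlap, with cΔex3-labelled array 4 the lowest of its group, and the difference was 2.97 ± 0.53 (SE, adjusted p = 0.00334). Its 22 collagen folding and secretion partners had 12 genes called higher, 7 lower and 3 not called, with a median difference of 1.33, where 24% of all genes were called higher and 29% lower. Col1a2, a chain of type I collagen, differed by 3.72 ± 0.30 (SE, adjusted p = 0.000111). Fkbp10, a prolyl isomerase that acts on procollagen, differed by 3.48 ± 0.26 (SE, adjusted p = 7.69e-05), and Kdelr3, a receptor that returns proteins to the endoplasmic reticulum, by 3.71 ± 0.27 (SE, adjusted p = 7.6e-05). Sec23a, a coat protein of the vesicles that leave it, was lower, by −1.91 ± 0.19 (SE, adjusted p = 0.000267). All 10 dermal fibroblast markers were called higher as well, with a median of 3.75, and their part was not tested.

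Serpini1, or neuroserpin, inhibits tissue plasminogen activator and is known from neurons. It read −4.15, −4.70 and −3.11 on the control-labelled arrays against −1.92, −3.06, −2.67 and −2.28 on the cΔex3-labelled arrays. The groups did not overlap, and the difference was 1.51 ± 0.43 (SE, adjusted p = 0.023). It was not called without control-labelled array 1 (1.43, adjusted p = 0.076), without control-labelled array 2 (1.15, adjusted p = 0.0791) or without cΔex3-labelled array 1 (1.32, adjusted p = 0.0564). With normexp it was 0.72 and not called. Within the first row of the slide, where cΔex3-labelled array 1 was the only one of its group, the difference was 2.50. Within the second, where control-labelled array 3 was the only one of its group, it was 0.45. Slide row and single array cannot be told apart here. Serpini2, known from the pancreas, was not tested. It was above background on 2 of 3 control-labelled arrays and on none of the others.

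Clade B genes lie in mice in a cluster on chromosome 1 and another on chromosome 13. Of 27 on the array 18 were tested, with 8 called higher, 5 lower and 5 not called, and a median difference of 0.72. By share, 44.4% were called higher and 27.8% lower, where 24% and 29% of all genes were. The share called lower was thus near that of all genes. On chromosome 13, 11 of 15 genes were tested, with 6 (54.5%) called higher and 1 (9.1%) lower. On chromosome 1, 7 of 12 were tested, with 2 (28.6%) called higher and 4 (57.1%) lower. Of the 8 called higher, 5 were the Serpinb6 genes, mouse relatives of the intracellular inhibitor of cathepsin G and thrombin.

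Serpinb6a read 3.62, 3.61 and 4.03 on the control-labelled and 5.53, 6.40, 6.04 and 4.52 on the cΔex3-labelled arrays and differed by 1.87 ± 0.44 (SE, adjusted p = 0.0106). Serpinb6c read 3.17, 3.27 and 3.66 on the control-labelled arrays, with 5.18, 6.10, 5.74 and 4.22 on the others, and differed by 1.94 ± 0.44 (SE, adjusted p = 0.00946). For both genes cΔex3-labelled array 2 was the highest and array 4 the lowest of its group. Serpinb6d read −1.85, −2.06 and −1.38 on the control-labelled arrays against 0.45, 1.28, 0.94 and −0.58 on the cΔex3-labelled arrays, a difference of 2.29 ± 0.45 (SE, adjusted p = 0.00508). Serpinb6e read −3.32, −3.58 and −2.92 on the control-labelled and −1.37, −0.51, −0.93 and −2.38 on the cΔex3-labelled arrays, a difference of 1.98 ± 0.44 (SE, adjusted p = 0.00869). For Serpinb6b, cΔex3-labelled array 1 was the lowest of its group. It read −0.87, −0.11 and −0.11 on the control-labelled arrays, with 0.63, 1.43, 1.74 and 1.09 on the others, and differed by 1.59 ± 0.33 (SE, adjusted p = 0.00602). The groups did not overlap for any of the 5 genes. As close copies they may share signal, which was not tested, and on the arrays of 1 mouse only Serpinb6d alone of the 5 was still called.

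Serpinb9, the inhibitor that protects cytotoxic cells from their own granzyme B, read −0.27, −0.01 and −0.08 on the control-labelled arrays against 0.44, 1.01, 1.62 and 0.78 on the cΔex3-labelled arrays. Its groups did not overlap, and the difference was 1.08 ± 0.29 (SE, adjusted p = 0.0176). Without control-labelled array 1 it was 1.01 and not called (adjusted p = 0.0659). Of its 6 relatives on the array, Serpinb9f read −3.34, −3.25 and −3.48 on the control-labelled and −6.54, −6.77, −8.23 and −5.80 on the cΔex3-labelled arrays and differed by −3.48 ± 0.53 (SE, adjusted p = 0.00167). It passed background on 2 of the 4 cΔex3-labelled arrays, and its difference was −1.81 with normexp and −1.34 in the deposited series values. Serpinb9e read −4.88, −4.90 and −4.75 on the control-labelled arrays, with −5.92, −4.97, −5.24 and −5.44 on the others. Its groups did not overlap, but the difference of −0.55 ± 0.24 (SE, adjusted p = 0.0963) was not called, and without cΔex3-labelled array 2 it was −0.69 and past the threshold (adjusted p = 0.0475).

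The Serpinb1 genes are relatives of the leukocyte inhibitor of neutrophil elastase and cathepsin G, and none was called. Serpinb1a read 1.84, 2.14 and −0.22 on the control-labelled arrays against 1.23, 1.44, 1.50 and 0.12 on the cΔex3-labelled arrays and differed by −0.18 ± 0.63 (SE, adjusted p = 0.826). Serpinb1c read −3.36, −2.23 and −4.82 on the control-labelled and −2.77, −2.69, −2.73 and −4.23 on the cΔex3-labelled arrays and differed by 0.37 ± 0.66 (SE, adjusted p = 0.665). The groups overlapped for both, and control-labelled array 3 was the lowest of all 7 arrays. Serpinb1b passed background on 3 of the 4 cΔex3-labelled arrays and on no control-labelled array, with all values between −7.71 and −3.41. Its difference of 1.53 ± 1.01 (SE, adjusted p = 0.24) was not called, and without cΔex3-labelled array 3 it was 2.50 and past the threshold (adjusted p = 0.00239).

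On chromosome 1, Serpinb8, an intracellular serpin that inhibits furin in the test tube, was called lower. It read 7.42, 7.37 and 5.78 on the control-labelled arrays, with 3.29, 4.40, 3.85 and 2.78 on the others, and differed by −3.28 ± 0.54 (SE, adjusted p = 0.00228). The groups did not overlap, and array 3 of the control-labelled and array 4 of the cΔex3-labelled arrays were the lowest of their groups. Serpinb2, plasminogen activator inhibitor 2, and Serpinb10, or bomapin, a nuclear serpin of blood-forming cells, were above background on no control-labelled array and on 4 of 4 others. Serpinb2 read −6.78, −7.21 and −7.88 on the control-labelled arrays against −3.06, −2.81, −1.98 and −4.83 on the cΔex3-labelled arrays and was at least 5.75-fold higher (adjusted p of the fitted difference 0.00203). Serpinb10 read −6.78, −7.96 and −7.88 on the control-labelled and −3.27, −2.73, −2.60 and −4.03 on the cΔex3-labelled arrays and was at least 5.82-fold higher (adjusted p of the fitted difference 0.000287). The fitted differences of 4.11 and 4.38 were 1.05 (not called, adjusted p = 0.102) and 0.97 with normexp, and 1.78 and 1.69 in the deposited series values.

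Serpinb3c and Serpinb3d are relatives of the squamous cell carcinoma antigens, inhibitors of cysteine and serine proteases known from stratified epithelia. Serpinb3d read −4.52, −3.88 and −4.66 on the control-labelled arrays, with −9.31, −8.08, −8.33 and −7.56 on the others. It was above background on every control-labelled array and on none of the others, so that it was at least 4.50-fold lower (adjusted p of the fitted difference 0.000371). Its fitted difference of −3.97 was −1.55 with normexp and −0.88 in the deposited series values. Serpinb3c read −2.55, −2.47 and −2.43 on the control-labelled arrays against −3.15, −3.15, −3.52 and −3.02 on the cΔex3-labelled arrays and differed by −0.73 ± 0.18 (SE, adjusted p = 0.0117). Its processed signal before scaling was 130, 136 and 168 on control-labelled arrays against 209, 152, 144 and 267 on the others, so that the fall is in the scaled values. Serpinb11 read −3.97, −4.30 and −4.19 on the control-labelled and −5.49, −5.56, −5.81 and −5.00 on the cΔex3-labelled arrays and differed by −1.31 ± 0.23 (SE, adjusted p = 0.00294). Its processed signal was 48.7, 38.4 and 49.6 against 41.3, 28.5, 29.6 and 67.5, and in the deposited series values the difference was −0.57.

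Serpinb12, an inhibitor of trypsin-like proteases, was above background on all control-labelled arrays and on 3 of 4 others. It read −4.49, −4.92 and −5.38 on the control-labelled arrays, with −5.60, −6.50, −5.97 and −3.79 on the others. The groups overlapped because of cΔex3-labelled array 4, and the difference of −0.54 ± 0.63 (SE, adjusted p = 0.5) was not called, while without that array it was −1.095 and past the threshold (adjusted p = 0.0278). The skin epithelial members were dim, apart from Serpinb5 on cΔex3-labelled array 4. Serpinb5, or maspin, a non-inhibitory serpin of epithelial cells, passed background on 2 of the 4 cΔex3-labelled arrays and on no control-labelled array, and read −8.03, −7.86 and −7.71 on the control-labelled arrays against −7.63, −7.90, −5.44 and −0.21 on the cΔex3-labelled arrays. It was highest on array 4, where the keratinocyte and hair follicle markers had a median of −0.37, against −3.75, −3.27 and −2.46 on cΔex3-labelled arrays 1 to 3 and −3.26 to −3.06 on the control-labelled arrays. Their part was not tested.

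The 10 Serpin genes not tested were Serpinb3a, Serpinb3b, Serpinb5, Serpinb7, Serpinb9b, Serpinb9c, Serpinb9d, Serpinb9g, Serpinb13 and Serpini2. Serpinb9c was above background on 2 of 3 control-labelled arrays and Serpinb9d on 1, and neither on the others. Serpinb3a, Serpinb3b, Serpinb7, Serpinb9b, Serpinb9g and Serpinb13 were well above background on none of the 7 arrays. No probe matched Serpina16, Serpina1b, Serpina3d-ps, Serpina3e-ps, Serpina3g, Serpina3l-ps, Serpinb1-ps1, Serpinb9h and Serpine3, which were not analysed here.

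The 11 Serpin genes called higher had their lowest cΔex3-labelled value on array 4 in 8 cases, and their highest on array 2 in 5 and on array 3 in 5. The adipocyte medians were 7.19, 7.38, 7.52 and 6.27 on cΔex3-labelled arrays 1 to 4, so that array 4 was the lowest there too, and their part in these genes was not tested. Of the 10 Serpin genes with a pair of tested probes, both probes had the same sign for 9 and lay on the same side of the threshold for 10. Serpina3i was the exception in sign, and only Serpina1a and Serpina1e had probes more than 1 log2 unit apart. All 39 called genes had the same direction within each row of the slide. The groups did not overlap for any of these genes, which fixes that outcome in advance, so it cannot show whether the slide row matters.

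The proteases that serpins inhibit were mostly lower or not called. Of 30 target proteases, 15 were called lower, 4 higher and 11 not, with a median difference of −1.15. Among all genes tested, 29% were called lower and 24% higher. The liver proteases F9 (coagulation factor IX), F11 (factor XI), Klkb1 (plasma prekallikrein) and Masp2 (the lectin pathway protease that Serping1 controls) differed by −4.15 ± 0.17, −8.13 ± 0.26, −7.77 ± 0.51 and −8.30 ± 0.50 (SE), with the highest adjusted p at 4.77e-05. The 4 called higher, named after their values were seen, were Plat, Plau, Cma1 and Ctsk. Plat and Plau, the tissue and urokinase plasminogen activators, differed by 5.81 ± 0.46 (SE, adjusted p = 0.000109) and 4.28 ± 0.32 (SE, adjusted p = 7.9e-05). Ctsk, the collagen-cleaving cathepsin K, differed by 3.59 ± 0.38 (SE, adjusted p = 0.000369). Cma1, the mast cell chymase, was above background on no control-labelled array and was at least 19.2-fold higher (adjusted p of the fitted difference 0.000132). The mast cell markers, which include Cma1, had medians of −5.51 to −4.16 on the control-labelled and −0.81 to 0.48 on the cΔex3-labelled arrays.

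Of 20 cofactors and clearance receptors of serpins, 12 were called higher and 5 lower, with a median difference of 2.21. Among all genes tested, 24% were called higher and 29% lower, so the 5 lower are near the share of all genes. Vtn, the plasma protein vitronectin, which binds inhibitors and integrins, differed by −7.13 ± 0.22 (SE, adjusted p = 7.37e-06). Sdc1, a cell surface heparan sulphate proteoglycan, differed by −2.67 ± 0.25 (SE, adjusted p = 0.000211). Sort1, the sorting receptor sortilin, and Gpc3, a glypican, were higher, by 4.30 ± 0.38 (SE, adjusted p = 0.000162) and 5.18 ± 0.50 (SE, adjusted p = 0.000232). Of 21 protease inhibitors of other families and related genes, 20 were tested, and 10 were called lower and 5 higher, with a median of −2.62. Here the 5 higher are near the share of all genes. The inter-α-trypsin inhibitor heavy chains Itih1, Itih2 and Itih4 differed by −8.53 ± 0.28, −8.59 ± 0.36 and −8.95 ± 0.27 (SE). Cpb2, a plasma carboxypeptidase that slows fibrinolysis, differed by −9.05 ± 0.27 (SE, adjusted p = 7.37e-06). A2m, the gene of α2-macroglobulin, was not tested.

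**Figure D4:**
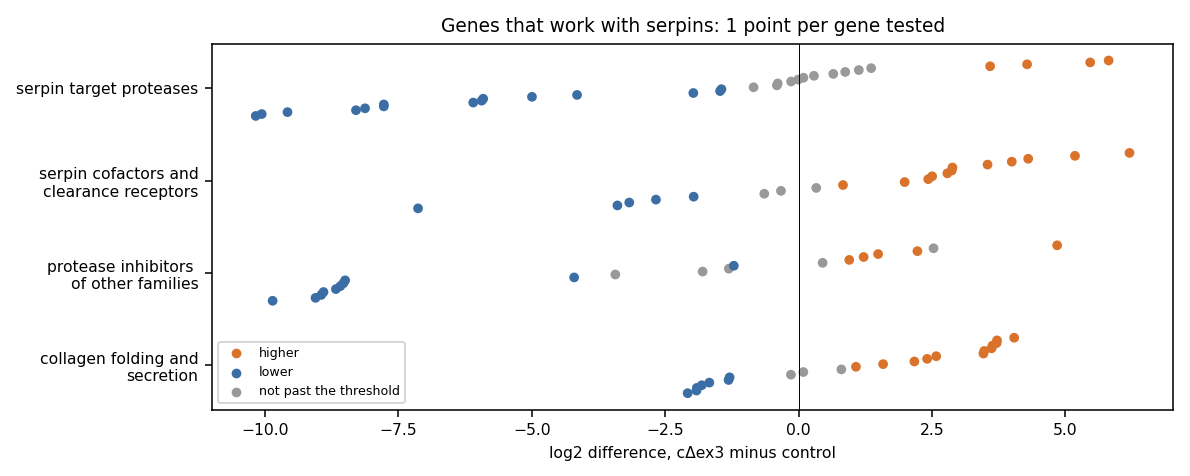
Difference of each tested gene in the lists of serpin targets, cofactors and receptors, other protease inhibitors and collagen partners of Serpinh1, as the cΔex3-labelled minus the control-labelled mean in log2 units. The list medians lie at −1.15, 2.21, −2.62 and 1.33.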

How the data were processed

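The data are 7 Agilent 1-colour arrays, each read from 1 sample. The deposited intensity values are processed signals, background-subtracted by Feature Extraction 10.7.1.1 per the file headers. The flags per spot (other values in the deposited files) marked outliers and spots well above background. The authors' deposited log2 table of all 7 samples, whose making is not given in the sources used here, had column medians of 7.52 to 7.53. It correlated at 0.9999 or more with the quantile-normalised normexp values computed here, which fixes its scale as log2 and leaves its background offset unknown. Results with normexp and in the deposited series values are therefore not independent checks of each other. The slide number in the header and the number within the file name disagreed for 7 of 7 arrays, and the slide positions for 4. Samples were assigned by the record of the deposit, and the rows of the slide from the header.

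Control spots were left out, outlier spots were set missing, spots of a probe were averaged, and log2 of the processed signal was taken relative to the array's 75th percentile. Probe accessions were looked up among RefSeq genes, which gave names to 28026 of 55681 probes. The brightest of a gene's tested probes was used. Testing required a signal well above background on 3 or more of the 7 arrays. Probes well above background made up 69.0% to 82.7% of an array, 0 spots were saturated, and the number of arrays limits the precision. Group means were compared by limma 3.58.1 under R 4.3.3, using lmFit and eBayes without covariates. Its two-sided p-values were adjusted over 18030 genes by the Benjamini-Hochberg method, with a threshold of 0.05. All adjusted p-values come from limma.

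Where no array of a group had a gene above background, the fold is a lower bound, written as at least N-fold. Each dim array then counts at its lowest signal well above background, or at the probe's own signal if that is higher. The p beside a bound is that of the fitted difference. A bound holds only for the processed signal scaled in this way. For Serpina12, Serpinb2, Serpinb3d and Serpinb10, the fitted differences with normexp and in the deposited series values were smaller than the bound. Serpin genes well above background on every array of a group were given with all values, except 1 that is counted but not reported here, and of each list of partner genes up to 4 with the smallest p were named. The members and lists were chosen with earlier results of these data known. Per the labels, samples are biological replicates. Alternatives changed the background correction, scaling, filter, probe choice, variance prior, slide row, replicate block and the arrays used. The files used hold no mean spot signal, so the median spot signal served normexp (offset 50) in its place. The steps were tested on simulated data.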

Additional observations from a re-analysis of the deposited data

Results flagged for a closer look

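Of 64 genes tested for a lone array among the 4 cΔex3-labelled arrays, 47 of them Serpin genes, 2 had one whose gap to the nearest other, as a share of the group's range, passed the 95% limit of Dixon's test. Chance gives this in about 1 in 20 groups. Serpina3f read −1.08 on array 1 against −1.74 to −1.69 on the other 3, a gap of 0.924 of the range. Serpinb1c read −4.23 on array 4 against −2.77 to −2.69 on the other 3, a gap of 0.948 of the range.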

How the results depend on the processing

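Of the 39 called Serpin genes, 28 kept their call in each of the 19 alternatives in which they were tested, and none changed direction. The arrays of 1 mouse only, with fewer arrays in each group, lost 9 calls: 7 Serpin genes and 7 Serpin probes were then called higher, in place of 11 and 12. Normexp lost 2 (Serpinb2 and Serpini1), the slide row as a block 2 (Serpinb9 and Serpini1), and leaving out 1 array between 0 and 3. Without 1 array in turn, Serpin genes called higher numbered 9 to 12 and lower 27 to 29, all genes called higher 3244 to 4921 and lower 3995 to 5568, and partner genes called higher 30 to 37 and lower 38 to 40. The replicate numbers did not pair the arrays: same-numbered arrays' deviations from their group means correlated at −0.0091, −0.001 and 0.0176. With the replicate block, 12 Serpin genes were called higher and 29 lower, and 7 target proteases higher in place of 4. Clade B genes called lower were 9 with no filter on dim probes, of 27 tested, and 3 with probes above background on all arrays, of 12 tested. Clade B genes called higher were 4 on the arrays of 1 mouse only. Normexp shifted the median difference of all genes from −0.08 to −0.20, and quantile normalisation to 0.13, so that small differences depend on the scaling. Genes not called changed sign in places, and the cause was not tested. Serpina3a, at 0.08 with all arrays, was −0.72 with normexp, −0.57 with the slide row as a block, −1.26 on the arrays of 1 mouse only and between −0.92 and 0.79 without 1 array. Serpina3j was −0.93 and called with normexp, 0.17 with the slide row and between −1.14 and 0.041 without 1 array. Serpinb1a was 0.30 with the slide row, 0.14 with the replicate block and between −0.92 and 0.26 without 1 array. Serpinb1c was −0.022 with normexp, −0.70 on the arrays of 1 mouse only and between −0.31 and 0.99 without 1 array. Serpinb12 was 0.008 on the arrays of 1 mouse only. Further genes not called with all arrays were called with normexp (Serpinb9e at −0.85 and Serpinb12 at −0.70), with the slide row (Serpinb9e at −0.73), with the replicate block (Serpinb12 at −1.095 and Serpine2 at 1.28) or on the arrays of 1 mouse only (Serpinb1b at 2.25). Signals near background limit Serpina3a, Serpina3j, Serpinb1b and Serpinb12, which were not well above it on every array.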
